A study of Homo with 4 samples.

Results

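The NRF2 pathway genes described here were 10 genes, the transcription factor NFE2L2 (NRF2), its inhibitor KEAP1 and the antioxidant genes NQO1, HMOX1, GCLC, GCLM, TXNRD1, SRXN1, GPX4 and AKR1C1. They were found among the 20263 genes of the deposited tables by matching the position of each Ensembl gene on GRCh38 with the position of the RefSeq gene of that symbol, and all 10 were found. RNA was sequenced from the human cell line H1299, which was derived from a non-small cell lung cancer, grown in RPMI medium with fetal bovine serum. Cells were infected with a lentivirus carrying a control short hairpin (shCtrl, 2 libraries) or a hairpin against IGF2BP3 (shIGF2BP3, 2 libraries), an RNA-binding protein that reads N6-methyladenosine. The study asked which genes depend on IGF2BP3 in these cells. The labels call the libraries biological replicates and do not say which of the study's hairpins the shIGF2BP3 libraries carry, so the spread within shIGF2BP3 may include a difference between hairpins. Both groups are infected cells, and an uninfected culture was not analysed here.

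NRF2 is a basic leucine zipper factor that binds antioxidant response elements together with a small MAF protein. KEAP1 holds NRF2 to a CUL3 ubiquitin ligase, which leads to its degradation, and oxidants or electrophiles that modify cysteines of KEAP1 release it. NRF2 is thus regulated largely as a protein, and its activity is commonly read from target genes for quinone reduction, glutathione synthesis, the thioredoxin system and haem breakdown. The pathway is often activated in lung cancer through mutations of KEAP1 or NFE2L2.

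The 4 libraries held 29709686 to 34817513 counts, of which mitochondrially encoded genes took 9.11% to 17.0%, with the higher share in replicate 2 of each group. IGF2BP3 itself was measured at 41.1 and 32.9 CPM (counts scaled to library size) in shCtrl and at 26.4 and 24.8 CPM in shIGF2BP3. This was 69.1% of the control level (edgeR, unadjusted p of 0.0244, adjusted p = 0.472). The 1.45-fold difference stayed under the study's 1.5-fold threshold. The knockdown target itself was thus not called in this fit by the criteria used below. Over 10 other ways of scaling, filtering or testing, the log2 fold change of IGF2BP3 (shIGF2BP3 over shCtrl) ranged from -0.68 to -0.53. Unadjusted p-values of these fits were 0.0138 to 0.0426 and adjusted ones 0.240 to 0.599, so the criteria were met at the -0.68 end. The paper reports the knockdown in H1299 cells by RT-qPCR and immunoblotting. Of the epithelial markers, KRT8 (699 to 926 CPM) and KRT18 (1044 to 1398 CPM) were abundant, KRT7 lay between 5.27 and 7.85 CPM, and EPCAM, KRT19 and CDH1 stayed at or below 0.354 CPM in every library. None of the lung lineage, fibroblast, leukocyte or endothelial markers reached an FPKM of 1, where FPKM counts read fragments per transcript length and library size. Their summed level in shCtrl and shIGF2BP3 was 0.177 to 0.213 and 0.145 to 0.377 CPM for the lung lineage list and 0.798 to 1.15 and 1.51 to 1.53 CPM for the fibroblast list. It was 0.346 to 0.826 and 0.174 to 0.290 CPM for the leukocyte list, and 0.620 to 0.692 and 0.551 to 0.654 CPM for the endothelial list.

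The pathway was transcribed in H1299 cells at very unequal levels. On the FPKM scale, which is per transcript length and so allows genes to be compared, GPX4 stood highest in shCtrl with 333 ± 44.4 (SD, n = 2), above 98.9% of all genes. A gene's FPKM was summed over its transcripts, so it also depends on how counts were split among them. GPX4 is the selenoenzyme that reduces lipid hydroperoxides in membranes. NQO1, a quinone reductase and a standard readout of NRF2, followed with 136 ± 29.7 FPKM, a level 2.46 times lower than that of GPX4. One NQO1 transcript, ENST00000564043, gave 16.2 and 96.9 FPKM in shCtrl replicates 1 and 2. At the other end AKR1C1, an aldo-keto reductase often abundant in lung cancer cells with active NRF2, was at 0.256 ± 0.0801 FPKM (SD, n = 2) and 20.7 times below the next gene. Within a library, the FPKM of GPX4 exceeded that of AKR1C1 947 to 1826 times.

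Between these ends the genes formed steps. TXNRD1 (45.2 FPKM) stood 3.00 times below NQO1, and the shCtrl range of KEAP1 (43.3 FPKM) overlapped that of TXNRD1. SRXN1 (21.7 FPKM), NFE2L2 (18.0 FPKM) and HMOX1 (15.1 FPKM) came next, and each overlapped its neighbour in this order. In shCtrl replicate 2 the transcript ENST00000446151 gave 66.8% of the NFE2L2 FPKM, so the place of NFE2L2 depends on that transcript estimate. GCLC (6.65 FPKM) and GCLM (5.29 FPKM) formed the lowest step above AKR1C1, again with overlapping ranges. The neighbours that were apart in shCtrl, namely GPX4 and NQO1, NQO1 and TXNRD1, KEAP1 and SRXN1, HMOX1 and GCLC, and GCLM and AKR1C1, were also apart over all 4 libraries. In all, 9 of the 10 genes reached 1 FPKM in shCtrl, while AKR1C1 did not. All 10 passed the filter on low counts.

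**Figure D1:**
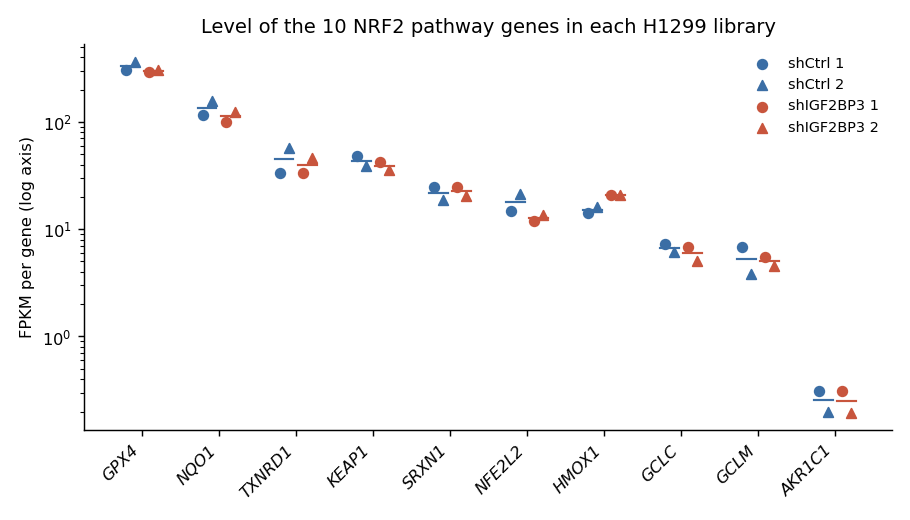
FPKM per gene on a log axis for the 10 NRF2 pathway genes, ordered by their mean in shCtrl. Each point is 1 library (blue, shCtrl; red, shIGF2BP3; circle, replicate 1; triangle, replicate 2) and each bar a group mean. GPX4 sits highest and AKR1C1 lowest in every library, and HMOX1 is the one gene whose red points both lie above its blue points, while those of NFE2L2 both lie below.

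To see whether the pathway responded to IGF2BP3 knockdown, the 10 genes were read from a test over 13379 genes. None of the 10 was called higher and none was called lower by the study's criteria, an unadjusted p no higher than 0.05 together with a 1.5-fold or larger difference. Over all genes tested 2.54% were called higher and 2.78% lower. At an unadjusted p of at most 0.05 alone, 1 of the 10 genes passed, HMOX1 among the higher and none among the lower, against 10.5% of all genes, 5.43% higher and 5.12% lower. After Benjamini-Hochberg adjustment 0 of the 13379 genes had a p under 0.05 in the edgeR quasi-likelihood fit, and before adjustment 1411 did. DESeq2 gave 156 genes with an adjusted p under 0.05, and none of the 10 was among them. The log2 fold change of shIGF2BP3 over shCtrl was positive for 3 and negative for 7 of the genes, with a median of -0.08 against -0.0019 over all genes. For 8 of them it was smaller than 0.25 in size. With 2 libraries per group the median standard error of the 10 log2 fold changes was 0.18. A call also needs the estimate itself to reach 1.5-fold, so a true change of that size could be missed in any of the genes. In the more variable genes larger changes could be missed too.

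**Figure D2:**
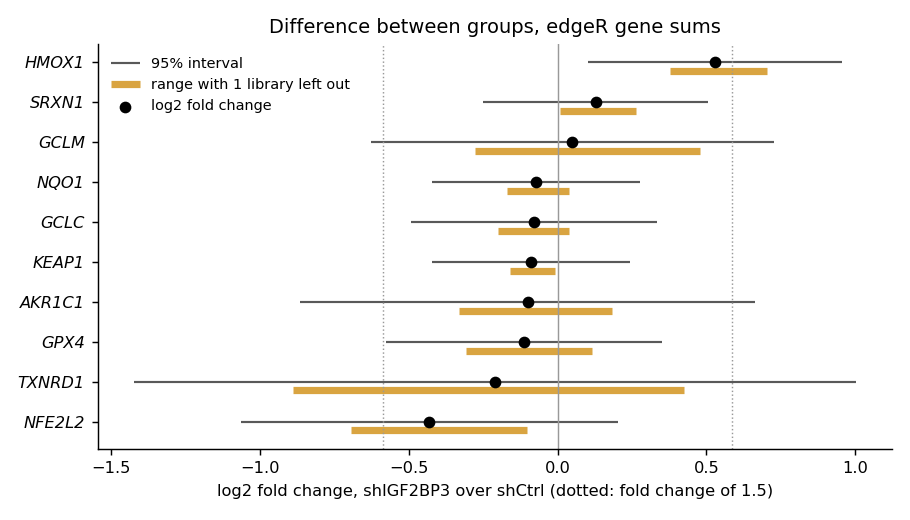
Log2 fold change of shIGF2BP3 over shCtrl for each of the 10 genes (black point) with its 95% interval (grey line) and the range obtained when each of the 4 libraries was left out in turn (yellow bar); dotted lines mark a fold change of 1.5. The interval of HMOX1 lies above 0, those of the other 9 genes include 0, and TXNRD1 has the widest interval, from -1.42 to 1.00.

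HMOX1 (ENSG00000100292; GRCh38 chromosome 22, 35380361 to 35394214, plus strand) encodes haem oxygenase 1, which opens the haem ring and releases iron, carbon monoxide and biliverdin. It was measured at 28.1 and 35.2 CPM in shCtrl and at 44.0 and 47.3 CPM in shIGF2BP3. Both shIGF2BP3 libraries thus lay above both shCtrl libraries, which held for no other gene of the 10 and for 23.3% of all genes. On the FPKM scale the group levels were 15.1 ± 1.33 and 20.8 ± 0.197 (SD, n = 2 each). The difference was 1.44-fold (95% interval 1.07 to 1.94), or 0.53 ± 0.17 (SE) on the log2 scale, with an unadjusted p of 0.0234 (edgeR, adjusted p = 0.472). It therefore stayed under the fold threshold and did not pass the correction over all genes. This value was 0.38 without shCtrl replicate 1 and 0.70 without shCtrl replicate 2, and the gene met the thresholds for a call in the latter fit and without shIGF2BP3 replicate 1 (0.59). Without shCtrl replicate 1 it had an unadjusted p of 0.0780, and without shIGF2BP3 replicate 2 it was 0.47 with an unadjusted p of 0.0960, so HMOX1 no longer met an unadjusted p of 0.05 in these fits. More cells with HMOX1 RNA and more of it per cell cannot be told apart in bulk RNA. Over 10 other ways of scaling, filtering or testing it ranged from 0.44 to 0.54 with adjusted p-values from 0.226 to 0.599. All counts of HMOX1 were assigned to 1 transcript, ENST00000216117.

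The genes that work with HMOX1 on haem and iron, most of them also NRF2 targets of the wider list, gave values on both sides of 0. Of 9 such genes 5 had a positive and 4 a negative log2 fold change, and the median was 0.02. None reached an unadjusted p of 0.05, against 10.5% of all genes. Ferritin, which stores the iron that HMOX1 sets free, had its heavy chain FTH1 at 151 and 219 CPM in shCtrl and at 251 and 268 CPM in shIGF2BP3. FTH1 was the one gene of these 9 with both shIGF2BP3 libraries apart from shCtrl. Over all genes tested, both lay above shCtrl for 23.3% and below it for 23.5%. The log2 fold change of FTH1 was 0.49 (edgeR, unadjusted p of 0.0590, adjusted p = 0.480). The ferritin light chain FTL, with 984 FPKM in shCtrl the most abundant gene of all the lists, was measured at 866 and 1125 CPM in shCtrl and at 1101 and 1263 CPM in shIGF2BP3, so the groups overlapped. Both ferritin genes have many processed pseudogenes, and how the counting shared reads among them is not stated. BLVRB, a biliverdin and flavin reductase, lay between 115 and 134 CPM in 3 libraries and at 207 CPM in shCtrl replicate 2 (log2 fold change -0.41, adjusted p = 0.581).

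NFE2L2 (ENSG00000116044; chromosome 2, 177227595 to 177392697, minus strand), the gene of NRF2, was measured at 38.5 and 58.2 CPM in shCtrl and at 31.1 and 40.8 CPM in shIGF2BP3. The groups overlapped, and shCtrl replicate 2 was the highest of the 4. On the FPKM scale NFE2L2 had 14.7 and 21.3 in shCtrl and 12.0 and 13.6 in shIGF2BP3, so that there both shIGF2BP3 libraries lay below shCtrl, and limma on log2(FPKM + 1) gave no call either. Its log2 fold change was -0.43 ± 0.25 (SE), the lowest of the 10 genes, with an unadjusted p of 0.144 and an adjusted p of 0.548, and its 95% interval ran from -1.06 to 0.20. Leaving out shCtrl replicate 2 gave -0.10, and leaving out shCtrl replicate 1 gave -0.69 with a call. The replicates of NFE2L2 differed 1.51-fold in shCtrl and 1.31-fold in shIGF2BP3, a larger difference than in 87.4% of all genes.

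The transcript estimates of NFE2L2 differed still more between libraries. ENST00000446151 (177230308 to 177263572) was given 52 and 1402 counts in the shCtrl libraries and 0 in both shIGF2BP3 libraries, which was 3.59% and 71.1% of the gene's counts in shCtrl. Against a floor of 3 counts per library the group mean of this transcript was at least 218-fold lower in shIGF2BP3. The edgeR fit gave it an unadjusted p of 0.0515 and an adjusted p of 0.764 across 37927 transcripts. Nearly all of its counts were thus in 1 library, shCtrl replicate 2. Without this transcript, an alternative chosen after its counts were seen, NFE2L2 had 37.2 and 16.9 CPM in shCtrl and 31.1 and 40.8 CPM in shIGF2BP3. The log2 fold change was then 0.41 (unadjusted p of 0.334, adjusted p = 0.695), opposite in sign to that of the whole gene. The transcript that led in the other 3 libraries, ENST00000397062, took between 19.0% and 90.0% of the gene's counts. NFE2L2 also overlaps AGPS on the opposite strand, whose level was 45.1 to 52.5 CPM, and whether the counting used strand is not stated.

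KEAP1 (ENSG00000079999; chromosome 19, 10486120 to 10503741, minus strand) varied little, with 128 and 116 CPM in shCtrl and 113 and 116 CPM in shIGF2BP3. Its replicates differed less than those of most genes, with a still smaller difference in 14.5% of all genes. The log2 fold change was -0.09 with a 95% interval from -0.42 to 0.24 (adjusted p = 0.804), which did not reach the fold threshold on either side. Per length, KEAP1 was more abundant than NFE2L2 in every library, by 3.25 and 1.82 times in shCtrl and 3.55 and 2.60 times in shIGF2BP3. The ratio of 1.82, in shCtrl replicate 2, includes ENST00000446151, which gave 66.8% of the NFE2L2 FPKM there. Among its minor transcripts, ENST00000592478 had 30 and 86 counts in shCtrl and 0 in both shIGF2BP3 libraries. The group mean of this transcript was at least 17.0-fold lower against the floor (edgeR, unadjusted p of 0.0169, adjusted p = 0.505). ENST00000592478 was 1 of 2 transcripts called lower among the 45 tested transcripts of the 10 genes, against 3.79% of all transcripts called lower. None of the 45 was called higher, against 2.5% of all.

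Other regulators and partners of NRF2 varied in both directions. Of 15 genes 7 had a positive and 8 a negative log2 fold change (median -0.04), and none met the thresholds. Over all genes 2.54% were called higher and 2.78% lower. At an unadjusted p of at most 0.05 alone 2 of the 15 were higher and 1 lower, against 5.43% and 5.12% of all genes. Both shIGF2BP3 libraries lay above shCtrl for 5 and below it for 4 of the 15, against 23.3% and 23.5%. SQSTM1, which encodes the autophagy receptor p62 that binds KEAP1, was the most abundant of the 15. It was measured at 653 and 629 CPM in shCtrl and 576 and 516 CPM in shIGF2BP3 (log2 fold change -0.23, adjusted p = 0.544). RBX1, the RING subunit of the CUL3 ligase, had 79.5 and 78.7 CPM in shCtrl and 104.5 and 104.9 CPM in shIGF2BP3, a log2 fold change of 0.40 with an unadjusted p of 0.0195 and an adjusted p of 0.472. PGAM5, a mitochondrial phosphatase that binds KEAP1, gave -0.28 (adjusted p = 0.484). The following 2 were chosen after their values were seen, as the remaining regulators at an unadjusted p of at most 0.05. NFE2L3, a paralog of NFE2L2, had 104 and 115 CPM in shCtrl and 145 and 161 CPM in shIGF2BP3 (0.48, unadjusted p of 0.0162, adjusted p = 0.472). DPP3, a peptidase that binds KEAP1, had 67.7 and 66.3 CPM in shCtrl and 48.9 and 40.8 CPM in shIGF2BP3, and at -0.58 (unadjusted p of 0.00956, adjusted p = 0.472) it lay just inside a 1.5-fold difference. DPP3 met both thresholds with library totals (-0.65), in the 3 limma fits (-0.70 to -0.74) and without shCtrl replicate 2 (-0.59) or shIGF2BP3 replicate 1 (-0.71), while without shIGF2BP3 replicate 2 it was -0.45.

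The reductases NQO1 and AKR1C1 stood at opposite ends of the level scale. NQO1 (ENSG00000181019; chromosome 16, 69706996 to 69726951, minus strand) was measured at 220 and 255 CPM in shCtrl and at 222 and 231 CPM in shIGF2BP3. All 4 values of NQO1 lay close together and the groups overlapped. The log2 fold change was -0.07, the 95% interval was -0.42 to 0.28 and the adjusted p was 0.854. Its split into transcripts was less steady than its total. ENST00000379047 led in shCtrl replicate 1 with 52.3% of the counts and in shIGF2BP3 replicate 2 with 29.9%, ENST00000564043 led in shCtrl replicate 2 with 40.7%, and ENST00000320623 led in shIGF2BP3 replicate 1 with 62.1%. None of the 6 transcripts of NQO1 was called.

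AKR1C1 (ENSG00000187134; chromosome 10, 4963253 to 4983283, plus strand) was covered by 87 and 55 counts in shCtrl and by 69 and 46 counts in shIGF2BP3. Its log2 fold change was -0.10 ± 0.30 (SE) with a 95% interval from -0.86 to 0.66 (adjusted p = 0.911), an interval that includes differences of 1.5-fold in both directions. AKR1C1 is nearly identical in sequence to AKR1C2 and related to AKR1C3, and reads may be shared among them. AKR1C2 was at 1.97 and 3.01 CPM in shCtrl and at 3.01 and 3.49 CPM in shIGF2BP3 (log2 fold change 0.38, adjusted p = 0.631). AKR1C3 did not exceed 0.354 CPM in any library and did not pass the filter with all 4 libraries. With the 3 genes pooled the log2 fold change was 0.13 (unadjusted p of 0.548, adjusted p = 0.813), opposite in sign to AKR1C1 alone.

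GCLC and GCLM encode the catalytic and modifier subunits of glutamate-cysteine ligase, which makes the first step of glutathione synthesis. GCLC (ENSG00000001084; chromosome 6, 53497341 to 53616970, minus strand) was measured at 28.8 and 26.9 CPM in shCtrl and at 28.6 and 24.1 CPM in shIGF2BP3. These values overlapped, and their log2 fold change was -0.08 with a 95% interval from -0.49 to 0.33 (adjusted p = 0.861). GCLM (ENSG00000023909; chromosome 1, 93885205 to 93909456, minus strand) was measured at 34.7 and 20.6 CPM in shCtrl and at 29.7 and 27.5 CPM in shIGF2BP3. Both shIGF2BP3 values of GCLM lay between the shCtrl values, which differed 1.68-fold from each other. Its log2 fold change was 0.05 with a 95% interval from -0.63 to 0.73 (adjusted p = 0.956). It was -0.28 without shCtrl replicate 2 and 0.48 without shCtrl replicate 1, and -0.05 when libraries were scaled by their totals, so no direction can be given. Per length, GCLC exceeded GCLM 1.06 and 1.61 times in shCtrl and 1.24 and 1.12 times in shIGF2BP3.

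GPX4 (ENSG00000167468; chromosome 19, 1103926 to 1106790, plus strand), which uses glutathione to detoxify lipid peroxides and so restrains ferroptosis, was measured at 258 and 347 CPM in shCtrl and at 263 and 296 CPM in shIGF2BP3. The highest value of GPX4 was that of shCtrl replicate 2 and the groups overlapped, on the FPKM scale only where the lower shCtrl and the higher shIGF2BP3 value met at 302. The log2 fold change was -0.11 with a 95% interval from -0.58 to 0.35 (adjusted p = 0.824), and it was 0.12 without shCtrl replicate 2. ENST00000611653 led in every library with 65.7% to 76.2% of the counts. A minor transcript of GPX4, ENST00000585362 (1104415 to 1105761), had 235 and 251 counts in shCtrl and 67 and 59 counts in shIGF2BP3. Its share of the GPX4 counts was 2.42% and 2.14% in shCtrl and 0.739% and 0.723% in shIGF2BP3, and the groups were well apart. On the log2 scale the transcript fell by 1.72 (unadjusted p of 0.0141, adjusted p = 0.483), the second call among the transcripts of the 10 genes. Neither call passed the adjustment over all transcripts.

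Around GPX4, the 7 genes of selenoprotein synthesis gave 4 positive and 3 negative log2 fold changes, with a median of 0.04. None had an unadjusted p of at most 0.05, against 10.5% of all genes. The 3 most abundant were TRNAU1AP (0.23), SEPHS1 (0.30) and SEPHS2 (-0.28), none with an adjusted p under 0.549. In the list of 12 genes of lipid peroxidation and ferroptosis 5 were positive and 7 negative (median -0.12), and none met the thresholds. Over all genes 2.54% were called higher and 2.78% lower. TFRC, the transferrin receptor that takes up iron, was measured at 298 and 110 CPM in shCtrl and at 73.0 and 155 CPM in shIGF2BP3. Its log2 fold change of -0.84 was large but the groups overlapped (adjusted p = 0.582). POR, the reductase that passes electrons to cytochromes P450, gave -0.15, and NCOA4, the receptor that carries ferritin to lysosomes, gave 0.06. LPCAT3, which inserts polyunsaturated fatty acids into phospholipids, was named after its values were seen. It was the one gene of the list at an unadjusted p of at most 0.05, against 10.5% of all genes. It had 52.6 and 56.7 CPM in shCtrl and 41.3 and 36.3 CPM in shIGF2BP3 (-0.49, unadjusted p of 0.0165, adjusted p = 0.472).

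TXNRD1 (ENSG00000198431; chromosome 12, 104215779 to 104350305, plus strand) encodes the cytosolic thioredoxin reductase, a selenoprotein that keeps thioredoxin reduced. It was the most variable of the genes, with 124 and 261 CPM in shCtrl and 104 and 229 CPM in shIGF2BP3. Replicate 2 of each group thus exceeded replicate 1, by 2.10 and 2.20 times, a larger gap between replicates than in 97.5% of all genes. The log2 fold change was -0.21 ± 0.48 (SE), with a 95% interval from -1.42 to 1.00 (adjusted p = 0.880), and with 1 library left out it ranged from -0.89 to 0.42. The replicate 2 libraries were also those with the larger mitochondrial share, and the part of this in the level of TXNRD1 was not tested. The estimates for single transcripts moved as well. ENST00000503506 took 11.9% and 95.9% of the TXNRD1 counts in shCtrl and 50.9% and 41.8% in shIGF2BP3, while ENST00000526691 led in shCtrl replicate 1 with 36.3%. TXNRD1 overlaps EID3 on the same strand, which had 6.90 to 7.99 CPM.

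**Figure D3:**
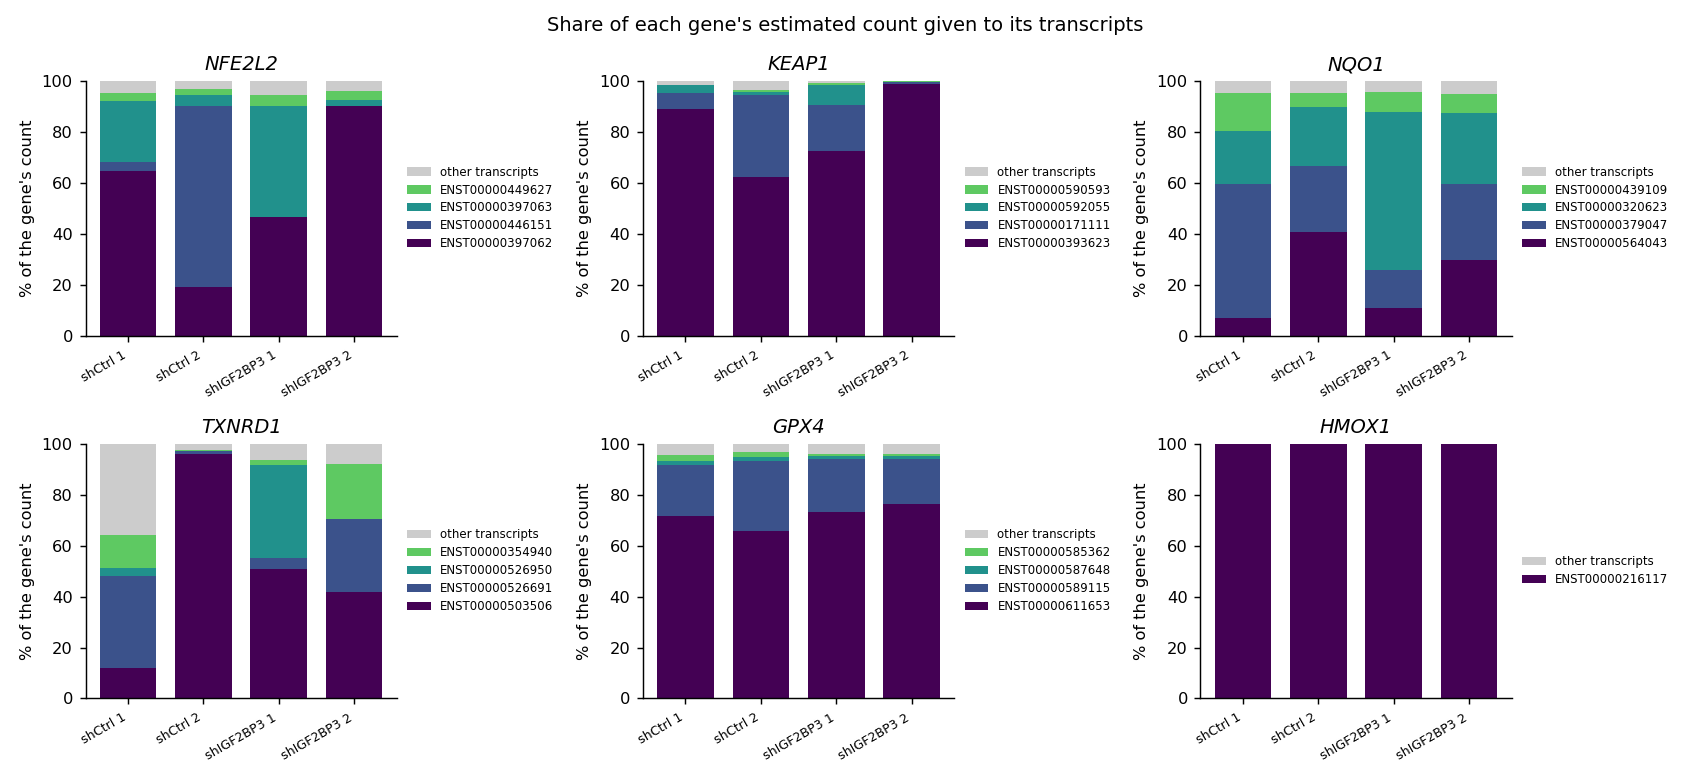
Share of each gene's estimated counts (y axis, percent) assigned to its 4 leading transcripts and to all others (grey) in each of the 4 libraries, for NFE2L2, KEAP1, NQO1, TXNRD1, GPX4 and HMOX1. The leading transcript changes between libraries for NFE2L2, NQO1 and TXNRD1, and ENST00000446151 fills 71.1% of the NFE2L2 bar in shCtrl replicate 2 and none of it in shIGF2BP3.

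SRXN1 (ENSG00000271303; chromosome 20, 646615 to 653370, minus strand), a sulfiredoxin that repairs overoxidised peroxiredoxins, was measured at 72.7 and 61.2 CPM in shCtrl and at 76.7 and 69.6 CPM in shIGF2BP3. The groups of SRXN1 overlapped and the log2 fold change was 0.13 with a 95% interval from -0.25 to 0.51 (adjusted p = 0.748). SRXN1 has only 1 transcript in the deposited data, ENST00000381962. It overlaps ENSG00000270299 on the same strand, and how reads were shared between the genes is not stated. The partners of both enzymes were more abundant. TXN, the thioredoxin reduced by TXNRD1, had 322 and 369 CPM in shCtrl and 417 and 445 CPM in shIGF2BP3, which were apart (log2 fold change 0.32, unadjusted p of 0.0670, adjusted p = 0.483). PRDX1, a peroxiredoxin that SRXN1 repairs, had 481 and 453 CPM in shCtrl and 907 and 434 CPM in shIGF2BP3, so that its log2 fold change of 0.52 rested on shIGF2BP3 replicate 1 alone (adjusted p = 0.581). In total 7 of the 10 genes had the same leading transcript in all 4 libraries, and NFE2L2, NQO1 and TXNRD1 did not. For SRXN1 this was fixed in advance by its single transcript.

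No gene was called in the wider set of NRF2 targets, against 2.54% of all genes called higher and 2.78% lower. Of 38 further targets 36 were matched and 32 passed the filter. Of these 15 had a positive and 17 a negative log2 fold change, with a median of -0.05. Both shIGF2BP3 libraries lay above shCtrl for 8 and below it for 8 of the 32, against 23.3% and 23.5% of all genes. GSR, the glutathione reductase, was named after its values were seen. It was the one gene of the 32 at an unadjusted p of at most 0.05, against 10.5% of all genes. It had 56.8 and 52.4 CPM in shCtrl and 41.9 and 38.5 CPM in shIGF2BP3 (-0.44, unadjusted p of 0.0214, adjusted p = 0.472). AKR1B10 and CYP4F11, singled out for their values, were listed at 0 in all 4 libraries.

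Among 26 other antioxidant enzymes 23 were tested, with 12 positive and 11 negative log2 fold changes and a median of 0.03. The most abundant were the cytosolic superoxide dismutase SOD1 (0.26, adjusted p = 0.549), the peroxiredoxin PRDX5 (-0.25, adjusted p = 0.596) and the peroxiredoxin PRDX6 (0.09, adjusted p = 0.814). GLRX2, a mitochondrial glutaredoxin named after its values were seen, had 13.4 and 15.1 CPM in shCtrl and 17.8 and 22.6 CPM in shIGF2BP3 (0.50, unadjusted p of 0.0465, adjusted p = 0.472). Also singled out for its values, GPX1, a peroxidase found in most cell types, had at most 0.726 CPM in any library, and TXNIP was listed at 0 in all 4. The cause of these low values was not tested.

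**Figure D4:**
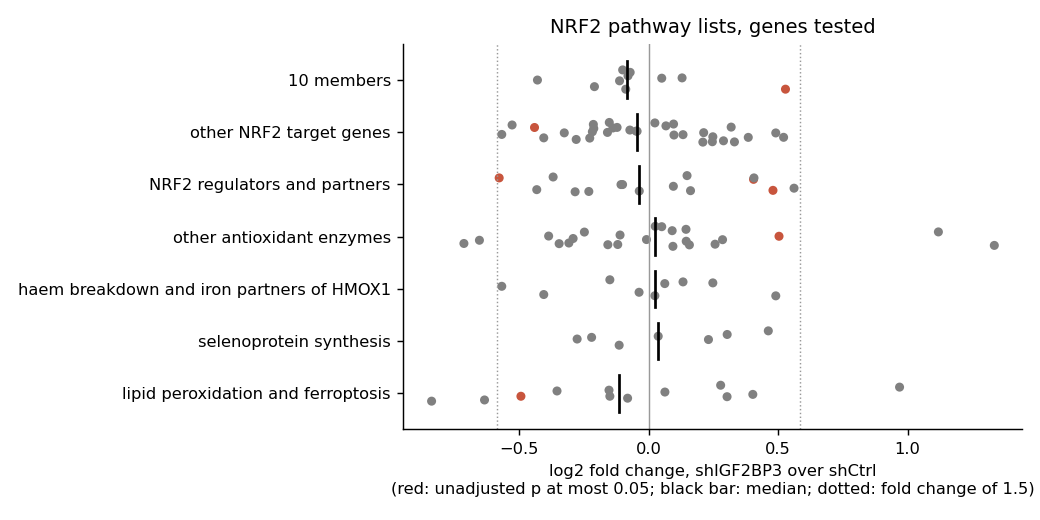
Log2 fold change of shIGF2BP3 over shCtrl for every tested gene of the 10 NRF2 pathway genes and of 6 related lists. Each point is 1 gene (red, unadjusted p at most 0.05), black bars are list medians and dotted lines mark a fold change of 1.5; the medians lie between -0.12 and 0.04, and no red point lies beyond a dotted line.

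The list genes whose level followed that of NFE2L2 most closely were OSGIN1, GLRX5 and BLVRB. Over the 4 libraries the Pearson correlation of their log2 CPM with that of NFE2L2 was 0.999, 0.980 and 0.969, the highest among 100 list genes compared. Libraries are shared between the genes and few, and 168 of 13378 genes correlated with NFE2L2 at least as closely as BLVRB. OSGIN1, an oxidative stress response gene, had 45.3 and 51.5 CPM in shCtrl and 42.7 and 46.2 CPM in shIGF2BP3. GLRX5, a mitochondrial glutaredoxin of iron-sulfur cluster assembly, had 185 and 208 CPM in shCtrl and 171 and 193 CPM in shIGF2BP3. Like NFE2L2, all 3 were highest in shCtrl replicate 2 and lowest in shIGF2BP3 replicate 1. This profile of NFE2L2 depends on ENST00000446151, since without it shCtrl replicate 2 had the lowest NFE2L2 value of the 4 libraries, 16.9 CPM.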

How the data were processed

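The authors deposited, for each of 95139 Ensembl transcripts, estimated counts as whole numbers without normalization, and FPKM values, which divide fragments by transcript length and library size. Submitters' processing notes name CASAVA, FastQC, Trimmomatic, HISAT2, bedtools and GRCh38, while versions, counter and strand setting are not given in the sources used here. Estimated counts and FPKM were summed to 20263 genes, of which 18218 received a symbol. A protein-coding RefSeq gene of GRCh38.p14 and an Ensembl gene had to be each other's best overlap, covering at least 0.5 of their joint length with a lead of 0.2. Of 135 list symbols 132 were matched. No transcript or promoter sequence was used here.

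The quasi-likelihood test of edgeR 4.0.16 under R 4.3.3 (TMM, estimateDisp, glmQLFit, glmQLFTest, prior count 0.125) was run on all 13379 genes passing filterByExpr (minimum count 10, minimum total 15), with group as the only term and Benjamini-Hochberg adjustment over all of them. Library totals were 29709686 to 34817513 counts, and CPM used these totals times the TMM factors (0.927 to 1.09). Biological variation between libraries was 22.8% (edgeR common coefficient), so precision was set by 2 libraries per group more than by depth. Replicates differed beyond sampling noise (chi-square per degree of freedom 75.7 in shCtrl and 75.1 in shIGF2BP3) and each counted as 1 sample. Where labels number the shIGF2BP3 libraries 1 and 2, the deposited columns number them 2 and 3. Nothing says how the cultures were kept separate, so p-values measure the spread between these libraries.

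Alternatives were RLE factors, library totals, totals without mitochondrial genes, DESeq2 1.42.0, 2 other count filters, limma 3.58.1 on log2(FPKM + 1) or log2(FPKM + 0.1) for genes of at least 1 FPKM in 2 libraries or without that filter, a replicate block, each library left out, an adjusted threshold, pooled AKR1C genes and the leading transcript alone. Named were the 10 genes, IGF2BP3, AKR1C2 and AKR1C3, list genes at the call thresholds, the 3 most abundant of each list and the 3 most like NFE2L2, and any other gene is marked. The genes and lists were chosen with earlier results of these data known.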

Additional observations from a re-analysis of the deposited data

How the results depend on the processing

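Among the values of the 10 genes, 130 alternative values kept their direction and stayed uncalled, 17 reversed the sign and 3 met both thresholds for a call. Some of the 130 crossed an unadjusted p of 0.05 alone, namely HMOX1 without shCtrl replicate 1 (0.0780) or shIGF2BP3 replicate 2 (0.0960) and NFE2L2 with the replicate block. With each library left out in turn, where the lone library of a group is assumed to vary like the other group, 0 to 1 of the 10 genes was called higher (HMOX1 without shCtrl replicate 2 or shIGF2BP3 replicate 1) and 0 to 1 lower (NFE2L2 without shCtrl replicate 1). Of the other NRF2 targets 0 to 1 was called higher (FECH without shCtrl replicate 1, FTH1 without shCtrl replicate 2, PRDX1 without shIGF2BP3 replicate 2) and 0 to 2 lower (BLVRB without shCtrl replicate 1, ABCB6 and AKR1C3 without shIGF2BP3 replicate 2, AKR1C3 on 6 and 12 counts in shCtrl). With all libraries, list genes called in some alternatives were DPP3, MSRB3 (1.34 with DESeq2 and without a count filter) and STEAP3 (-0.63 with DESeq2, -0.67 with the block). Among the cell markers COL1A1 of the fibroblast list was called (1.05 with at least 10 counts in every library). Log2 fold changes in the other lists also depended on single libraries. Without shCtrl replicate 1 NFE2L1 was 2.04 and BTRC 0.66, and without shCtrl replicate 2 SEPHS1 was 0.73, CHAC1 1.09 and TFRC -1.39. Without shIGF2BP3 replicate 1 SESN1 was -2.18, GLRX2 0.67 and STEAP3 -1.03. MAFF was -1.62, MAFG -0.60 and TFRC -1.48 with shIGF2BP3 replicate 2 left out. Over all genes, these fits called 213 to 680 higher and 322 to 872 lower, with both highest counts obtained without shIGF2BP3 replicate 1. The 340 genes called higher became 195 once libraries were scaled by totals. Limma called 127 higher on log2(FPKM + 1), 175 on log2(FPKM + 0.1) and 106 without the FPKM filter. At an adjusted p under 0.05, 0 genes were called higher and 0 lower with edgeR, against 156 in all with DESeq2, 84 without shIGF2BP3 replicate 1, 17 without a count filter and 8 or 9 with filtered limma.

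Signs reversed with a library left out for NQO1 (-0.17 to 0.038), GCLC (-0.20 to 0.037), GCLM (-0.28 to 0.48), TXNRD1 (-0.89 to 0.42), GPX4 (-0.31 to 0.12) and AKR1C1 (-0.33 to 0.18). With the leading transcript alone they reversed for NFE2L2 (0.51), KEAP1 (0.077) and GPX4 (0.019). NFE2L2 was 0.41 without ENST00000446151, a setting chosen after seeing the data. GCLM was -0.046 by totals, and in limma -0.028 on log2(FPKM + 0.1) and -0.030 otherwise, and AKR1C1 pooled with its paralogs was 0.13. The cause was not tested. AKR1C1 has no value in the limma fits filtered at 1 FPKM.

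Library totals moved the median of all genes to -0.08 on the log2 scale. Deviations of same-numbered libraries correlated at 0.044 over all genes, and the labels name no shared culture or day, so the numbers were not taken to pair the samples. TXNRD1 and the mitochondrial share were nevertheless higher in both replicate 2 libraries. With a replicate block 354 genes were called higher and 418 lower and none of the 10, and NFE2L2 was -0.41 (unadjusted p of 0.0436, adjusted p = 0.452), HMOX1 0.54 (unadjusted p of 0.0193, adjusted p = 0.447) and TXNRD1 -0.22 (unadjusted p of 0.153).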
